A study of Mus musculus with 6 samples.

Results

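The 10 genes described here, Tdo2, Afmid, Kynu, Kmo, Haao, Acmsd, Qprt, Nadsyn1, Nampt and Nnmt, encode enzymes of tryptophan breakdown and of the synthesis and use of nicotinamide adenine dinucleotide (NAD) precursors. They were chosen by name, and all 10 were found among the 56305 genes of the table. Their transcripts were measured by polyA RNA-seq in the livers of 3 WT and 3 Vps15LKO mice, 1 library per liver. Vps15LKO mice carry AlbCre and Vps15 f/f, so that Vps15, the regulatory subunit of class 3 phosphoinositide 3-kinase (gene Pik3r4), is deleted by a Cre recombinase driven from the albumin promoter, which is active in hepatocytes from before birth. WT is the control genotype of the same breeding, whose floxed and Cre alleles the labels do not list. All mice were male, 5 weeks old, fed chow ad libitum, and were sampled at zeitgeber time 6 (ZT6), in the light phase. The comparison asks which hepatic transcripts differ in the absence of Vps15.

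In liver, most dietary tryptophan that is not used for protein is broken down along the kynurenine pathway, in which the indole ring is opened and the product is trimmed and oxidised to an unstable semialdehyde. That intermediate either is decarboxylated towards glutarate and complete oxidation, or closes to quinolinate, from which NAD is made de novo. NAD is also rebuilt from nicotinamide by a salvage route, and nicotinamide leaves that route when it is methylated or oxidised. Liver is the main organ that runs the complete path from tryptophan to NAD.

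With the deposited scaling, the level of 8 enzymes of tryptophan breakdown and de novo NAD synthesis and of Nnmt was lower in Vps15LKO livers, and 6 of these 9 genes kept their call when libraries were scaled to the same total of reads. Acmsd, Qprt and Nadsyn1 lost it. By limma with Benjamini-Hochberg adjustment, 9 of the 10 genes were called lower, where a call needed a change of 1.2-fold or more and an adjusted p under 0.05. Of all 15430 genes tested, 33.0% were called lower, 33.5% higher and 66.5% in either direction. None of the 10 was called higher by limma, 0 had an unadjusted p under 0.05 in that direction, and edgeR, DESeq2 and voom also called 0 higher. The values of the genotypes did not overlap for any of the 10 genes, which was also true of 73.2% of all tested genes. The median log2 fold change was -1.99 over the 10 genes and -0.02 over all tested genes. In 6 genes, Haao, Afmid, Tdo2, Nnmt, Kynu and Kmo, the level fell by more than 1.5 on the log2 scale, a fall passed by 6.62% of tested genes. In Acmsd, Qprt and Nadsyn1 the log2 fold changes were smaller, between -0.96 and -0.49, and the sign of Nadsyn1 turned when libraries were scaled to the same total of reads.

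The table holds normalized counts, reads per gene divided by a size factor for each library. The libraries held 16137093 to 18110223 reads on genes, and size factors were 0.742 to 0.801 in WT and 1.23 to 1.41 in Vps15LKO, so the scaling moves every fold change. With libraries scaled to the same total of reads instead, the log2 fold changes of all genes had a median of 0.70, a shift of 0.72, and 11.1% of genes were called lower and 66.7% higher. Pik3r4, the targeted gene, was at 514 ± 57.1 (SD, n = 3) in WT and at 353 ± 11.0 normalized counts in Vps15LKO, a log2 fold change of -0.54 as deposited but 0.19 with the same total of reads, so its direction rests on the scaling. Counts over the whole gene do not measure the deleted part alone.

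**Figure D1:**
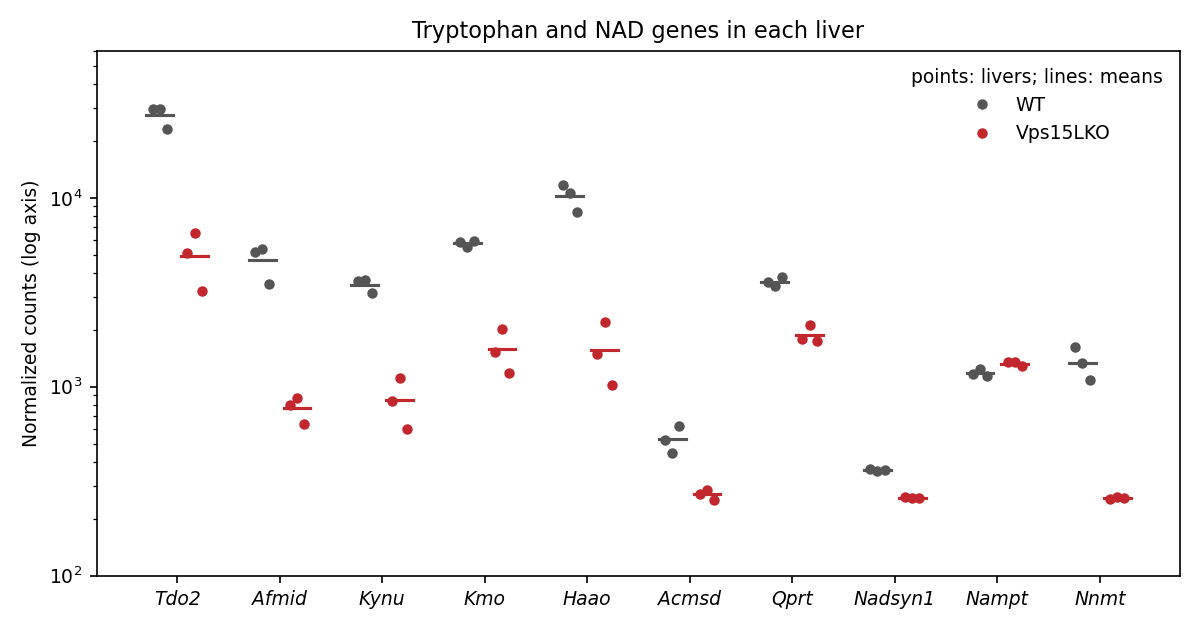
Normalized counts (log axis) of the 10 genes in each liver, with WT in grey and Vps15LKO in red; points are livers (n = 3 per genotype) and lines are means. The red points lie below the grey ones for 9 genes and above them for Nampt, and the largest of the 10 levels, Tdo2 in WT, lies between 23029 and 29606.

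Tdo2 (ENSMUSG00000028011, chromosome 3 from 81957090 to 81976202, minus strand, GRCm38) encodes tryptophan dioxygenase, which opens the indole ring and sets the rate of the pathway in hepatocytes. Its normalized counts were 29606, 29581 and 23029 in WT and 5074, 6490 and 3212 in Vps15LKO. Even the highest Vps15LKO liver stood far below the lowest WT liver. The mean was 27405 ± 3790 in WT and 4926 ± 1644 in Vps15LKO (SD, n = 3), 5.56-fold lower. The log2 fold change was -2.52 with an SE of 0.25 (95% interval -3.10 to -1.95, adjusted p = 4.16e-05 by limma with Benjamini-Hochberg adjustment). With the same total of reads it was -1.80, and with quantile normalization -1.52.

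Afmid (ENSMUSG00000017718, chromosome 11 from 117825924 to 117839908, plus strand) encodes the formamidase that releases kynurenine from the product of Tdo2. It was at 5139, 5379 and 3489 normalized counts in WT and at 800.3, 867 and 634 in Vps15LKO, again without overlap, a mean 6.09-fold lower. The log2 fold change was -2.59 with an SE of 0.18 (adjusted p = 7.83e-06, limma with Benjamini-Hochberg adjustment), and -1.86 with the same total of reads. The exons of Afmid share 1566 bases with Gm20708, a gene model on the same strand, and 83 bases with Tk1 on the opposite strand, so the Afmid value is uncertain to that extent. Gm20708 stood at 0.916 to 1.08 times the level of Afmid in the 6 livers and had a log2 fold change of -2.40.

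Kmo, Kynu and Haao carry out the next steps, from kynurenine to the semialdehyde at the branch point. Kmo (ENSMUSG00000039783, chromosome 1 from 175620381 to 175662116, plus strand) encodes kynurenine monooxygenase, a hydroxylase of the outer mitochondrial membrane. Its levels were tight in WT, at 5818, 5502 and 5909.7 normalized counts, and spread over 1526, 2013 and 1188 in Vps15LKO. The fall was 3.65-fold, a log2 fold change of -1.90 with an SE of 0.17 (adjusted p = 2.78e-05, limma with Benjamini-Hochberg adjustment). Kynu (ENSMUSG00000026866, chromosome 2 from 43555329 to 43682715, plus strand) encodes kynureninase, which cleaves the alanine side chain from hydroxykynurenine. Kynu measured 3636, 3657 and 3133 normalized counts in WT and 838, 1115 and 597 in Vps15LKO. No Vps15LKO liver reached the WT range, and the log2 fold change was -2.07 with an SE of 0.20 (adjusted p = 3.86e-05, limma with Benjamini-Hochberg adjustment). Haao (ENSMUSG00000000673, chromosome 17 from 83831156 to 83847963, minus strand) encodes the dioxygenase that opens the ring of hydroxyanthranilate and gives the semialdehyde. Haao measured 11627, 10557 and 8425 normalized counts in WT and 1485, 2205 and 1023 in Vps15LKO, without overlap. Its log2 fold change of -2.76 with an SE of 0.26 was the lowest of the 10 (adjusted p = 2.94e-05, limma with Benjamini-Hochberg adjustment), and 1.69% of tested genes had a lower one. With the same total of reads the log2 fold changes were -1.17 for Kmo, -1.35 for Kynu and -2.03 for Haao.

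Within the Vps15LKO livers, replicate 2 had the highest and replicate 3 the lowest level of each of these 5 genes. That order, with replicate 1 between them, was found in 8 of the 10 genes, in 7 of 7 hepatocyte markers, in 28.3% of all tested genes and in 53.0% of the genes called lower. It was not found in Nadsyn1 or Nnmt, whose levels in these livers were nearly equal. The worth of 1 read in normalized counts ran in the same order, at 0.810, 0.764 and 0.707 in replicates 2, 1 and 3. In replicates 1, 2 and 3, Nampt had 1760, 1664 and 1816 reads, Qprt 2338, 2628 and 2465, and Acmsd 356, 349 and 357. For Nampt, Qprt and Acmsd the order therefore rests on the size factors.

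Acmsd and Qprt take the pathway in opposite directions at the branch. Acmsd (ENSMUSG00000026348, chromosome 1 from 127729413 to 127767978, plus strand) encodes the decarboxylase that sends the semialdehyde towards glutarate and away from NAD. Acmsd was at 521, 445 and 617 normalized counts in WT and at 272, 283 and 252 in Vps15LKO. The fall was 1.96-fold, a log2 fold change of -0.96 with an SE of 0.13 (adjusted p = 0.000252, limma with Benjamini-Hochberg adjustment). Its exons share 94 bases with the antisense transcript 2900009J06Rik, whose mean was 42.5 normalized counts in WT and 22.4 in Vps15LKO. Qprt (ENSMUSG00000030674, chromosome 7 from 127107114 to 127122226, minus strand) encodes the phosphoribosyltransferase that commits quinolinate to NAD. Qprt was at 3593, 3398 and 3819 normalized counts in WT and at 1785, 2129.6 and 1743 in Vps15LKO, a fall of 1.91-fold with no overlap. Its log2 fold change was -0.94 with an SE of 0.11 (adjusted p = 9.49e-05, limma with Benjamini-Hochberg adjustment). With quantile normalization the log2 fold change of Qprt was -0.45 and was still called. Both genes lost their call with the same total of reads, where the log2 fold changes were -0.23 for Acmsd and -0.21 for Qprt (adjusted p = 0.159 and 0.0779, limma with Benjamini-Hochberg adjustment). Relative to the median of all genes, the log2 fold changes of Acmsd and Qprt were -0.94 and -0.92 under either scaling.

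Nadsyn1 (ENSMUSG00000031090, chromosome 7 from 143795584 to 143822849, minus strand) encodes NAD synthetase, which amidates the last intermediate of the de novo route to NAD. Its replicates were the tightest of the 10, with 369, 358 and 361 normalized counts in WT and 259.6, 258 and 257 in Vps15LKO. The difference was small but exceeded this spread, with a log2 fold change of -0.49 and an SE of 0.09 (adjusted p = 0.00137, limma with Benjamini-Hochberg adjustment). With the same total of reads its log2 fold change was 0.24 and was not called (adjusted p = 0.0812, limma with Benjamini-Hochberg adjustment), so Nadsyn1 has no direction that holds under both scalings. Relative to the median of all genes it was -0.47 under either.

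Nampt (ENSMUSG00000020572, chromosome 12 from 32819545 to 32853349, plus strand) encodes the rate-limiting enzyme of NAD salvage from nicotinamide, and is known as a gene that Bmal1 and Clock activate through E-boxes. It stood at 1168, 1242 and 1139 normalized counts in WT and at 1344, 1348 and 1284 in Vps15LKO. Every Vps15LKO liver was above every WT liver, but by little. The log2 fold change was 0.16 with an SE of 0.08 and a 95% interval of -0.02 to 0.35, and it was not called (adjusted p = 0.107, limma with Benjamini-Hochberg adjustment). With the same total of reads the log2 fold change was 0.89 and Nampt was called higher (adjusted p = 1.66e-05, limma with Benjamini-Hochberg adjustment). Relative to the median of all genes it was 0.18 as deposited and 0.19 with the same total of reads.

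Nnmt (ENSMUSG00000032271, chromosome 9 from 48591877 to 48605153, minus strand) encodes nicotinamide methyltransferase, which takes nicotinamide out of salvage at the cost of a methyl group from S-adenosylmethionine. It measured 1614, 1337 and 1079.8 normalized counts in WT and 254, 259 and 259 in Vps15LKO. The Vps15LKO values were almost identical to each other and 5.22-fold below the WT mean. The log2 fold change was -2.36 with an SE of 0.14 (adjusted p = 3.36e-06, limma with Benjamini-Hochberg adjustment), and -1.63 with the same total of reads.

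**Figure D2:**
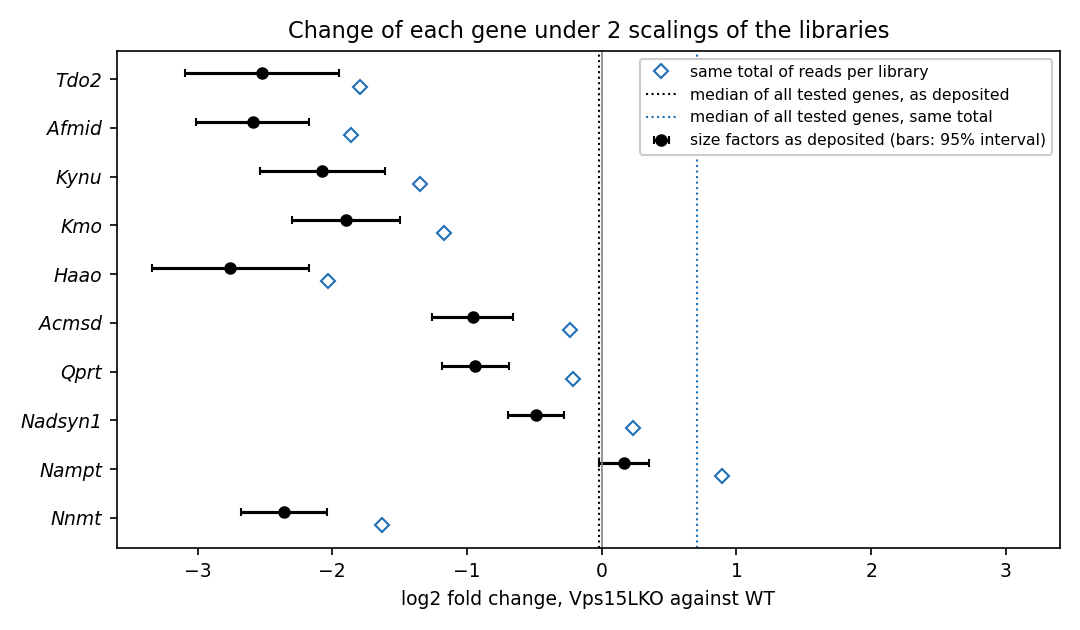
Log2 fold change of each gene, Vps15LKO against WT, with the deposited size factors (black points, bars are 95% intervals, n = 3 per genotype) and with the same total of reads per library (open diamonds); dotted lines are the medians of all tested genes. Tdo2, Afmid, Kynu, Kmo, Haao and Nnmt lie left of 0 under both scalings, Acmsd and Qprt come near 0, Nadsyn1 moves from -0.49 to 0.24, and Nampt moves from 0.16 to 0.89.

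The start regions of the NAD genes are shown because the study turns on Bmal1, whose complex with Clock binds the E-box CACGTG. RefSeq promoter windows (GRCm38.p6, 250 bases before to 50 after the start, 300 in all) were matched for 8 of the 10 genes, all but Kynu and Nnmt. CACGTG, which reads the same on both strands, was in 0 of the 8 and in 7.15% of 32851 windows. At that share, 0 of 8 is no result about these genes, and no bases outside the windows were searched. Only 3 of the 8 were free of annotated exon, and those of Kmo, Tdo2 and Haao lie inside the annotated gene span. Below are the 250 bases before the start of Nadsyn1, the last step of de novo synthesis, and Nampt, the first of salvage; neither stretch overlapped an annotated exon, and each CG dinucleotide is in capitals.
Nadsyn1, chr7:143822853-143823102, minus strand: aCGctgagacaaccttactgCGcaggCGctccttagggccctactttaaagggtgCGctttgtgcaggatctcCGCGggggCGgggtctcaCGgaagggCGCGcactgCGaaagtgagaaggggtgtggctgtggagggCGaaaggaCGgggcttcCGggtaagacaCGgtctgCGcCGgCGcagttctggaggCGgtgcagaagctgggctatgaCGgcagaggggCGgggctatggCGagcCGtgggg
Nampt, chr12:32820085-32820334, plus strand: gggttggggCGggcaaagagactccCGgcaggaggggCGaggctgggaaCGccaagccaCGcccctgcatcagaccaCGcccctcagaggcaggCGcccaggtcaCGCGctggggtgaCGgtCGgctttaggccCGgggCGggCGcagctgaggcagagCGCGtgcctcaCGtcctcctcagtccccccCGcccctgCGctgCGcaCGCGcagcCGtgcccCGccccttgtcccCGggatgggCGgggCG
The Nadsyn1 stretch held 23 CG and the Nampt stretch 27, against a median of 6 over all windows. Of all windows, 86.7% held fewer CG than that of Nadsyn1 and 91.4% fewer than that of Nampt. The Nampt stretch was 75.6% G or C and held 5 GC boxes (GGGCGG or its reverse complement CCGCCC), and the RefSeq start used here lies inside the longer annotated gene span. A GC box was present in 3 of the 8 windows and in 32.7% of all windows. Nadsyn1 and Nampt had the 2 stretches richest in CG among the 8 matched genes. The other 6 held at most 15, and 5 of them held no more than the median. The count of CG was chosen as a measure after the expression values had been seen.

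Per kilobase of exon, Tdo2 had the highest level in both genotypes, at 7061 ± 977 normalized counts per kb in WT and 1269 ± 424 in Vps15LKO (SD, n = 3). In WT it was followed by Haao at 2179.7 ± 348, Qprt at 1362 ± 79.7, Afmid at 1319 ± 291, Kmo at 1216 ± 45.3, Nnmt at 852 ± 169 and Kynu at 565 ± 48.3. Nampt at 234 ± 10.5, Acmsd at 186 ± 30.6 and Nadsyn1 at 109.7 ± 1.58 were the lowest in WT. The WT ranges overlapped between the neighbours Qprt and Afmid and between Afmid and Kmo, and not between other neighbours in this order. In Vps15LKO, Qprt at 713 ± 80.1 came second, followed by Haao at 336 ± 127, Kmo at 334 ± 87.8, Nampt at 262 ± 7.07, Afmid at 217 ± 33.8, Nnmt at 163 ± 1.76, Kynu at 138 ± 42.2, Acmsd at 95.04 ± 5.42 and Nadsyn1 at 78.1 ± 0.364. There the ranges overlapped between Haao and Kmo, between Kmo and Nampt, between Nnmt and Kynu, and between Kynu and Acmsd. The ratio of the highest to the lowest level shrank from 64.3 in WT to 16.2 in Vps15LKO. The share of Tdo2 in the summed level of the 10 genes per kb was 46.8% in WT and 35.2% in Vps15LKO, and that of Nampt was 1.55% and 7.28%.

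Ratios between genes of the same liver do not depend on the scaling between libraries, and they are given as a description with no test. The log2 ratio of Acmsd to Qprt, which sets the exit to glutarate against the entry to NAD, was -2.78, -2.93 and -2.63 in WT and -2.71, -2.91 and -2.78 in Vps15LKO. These values overlapped, and the means of -2.78 ± 0.15 and -2.80 ± 0.10 (SD, n = 3) differed by less than their spread. The log2 ratio of Nampt to Qprt, salvage against de novo synthesis, was -1.62, -1.45 and -1.74 in WT and -0.41, -0.66 and -0.44 in Vps15LKO. It was higher in every Vps15LKO liver, by 1.10 on average, or from 0.329 to 0.706 as a plain ratio. The log2 ratio of Nnmt to Nampt, methylation of nicotinamide against its salvage, was 0.47, 0.11 and -0.08 in WT and -2.40, -2.37 and -2.31 in Vps15LKO. It fell by 2.52 on average with no overlap, from a plain ratio of 1.12 to 0.195.

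The livers also differed in markers of their cells. Of 7 hepatocyte markers, 6 were called lower under either scaling, led by Tat (-2.65) and Ttr (-1.98), and their summed normalized counts were 2510570 to 2897030 in WT and 759502 to 1156560 in Vps15LKO. Alb, named after its values were seen, was the 1 not called (-1.48, adjusted p = 0.366 by limma with Benjamini-Hochberg adjustment), although its values did not overlap either. They were 2030860 to 2350420 in WT and 620735 to 968935 in Vps15LKO. The SE of 1.38 is wide beside these values, since limma with trend takes it partly from genes of like level. Higher calls were made for 7 of 9 macrophage markers (summed 7262 to 8705 in WT, 22257 to 26123 in Vps15LKO), 8 of 8 stellate cell and fibroblast markers (5809 to 6016, 26590 to 32303) and 5 of 5 cholangiocyte markers (662 to 787, 11426 to 22425). Among them were Cd68 (3.15) and Lyz2 (2.45), Col1a1 (4.39) and Col3a1 (3.58), and Spp1 (4.69) and Epcam (3.44), with log2 fold changes in parentheses. The neutrophil markers S100a8 (4.29), S100a9 (2.70) and Csf3r (2.16) were called higher, Retnlg and Ly6g were below the filter, and the 5 summed to 67.5 to 79.6 in WT and 369 to 449.7 in Vps15LKO. Of 4 lymphocyte markers tested, Cd3d (1.85), Cd3e (1.73) and Nkg7 (2.05) were called higher. Of 6 endothelial markers, 3 were called lower, among them Kdr (-0.92) and Clec4g (-0.43), and 3 higher, among them Lyve1 (0.95) and Pecam1 (0.45), and the sum was 5996 to 6460.3 in WT and 4747 to 6254 in Vps15LKO; with the same total of reads 0 were lower and 4 higher. In bulk tissue, fewer cells of a type and less RNA per cell cannot be told apart, and the part of these markers in the levels of the 10 genes was not tested.

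Set against the mean log2 level of the 7 hepatocyte markers in the same liver, which was 1.71 units below WT in Vps15LKO, 14656 of the 15430 tested genes had a higher ratio in Vps15LKO. Of the 10 genes, 6 had a lower ratio, beside 5.02% of all tested genes, by -1.04 for Haao, -0.88 for Afmid, -0.81 for Tdo2, -0.65 for Nnmt, -0.36 for Kynu and -0.19 for Kmo on the log2 scale. The genotypes did not overlap for 5 of the 6, as for 3.00% of tested genes in this direction, and overlapped for Kmo. The other 4 ratios were higher without overlap, as were those of 91.5% of tested genes, by 0.75 for Acmsd, 0.77 for Qprt, 1.22 for Nadsyn1 and 1.88 for Nampt. A higher ratio is thus the usual outcome among all genes and not particular to these 4. This ratio was chosen after the data had been seen and has no test.

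**Figure D3:**
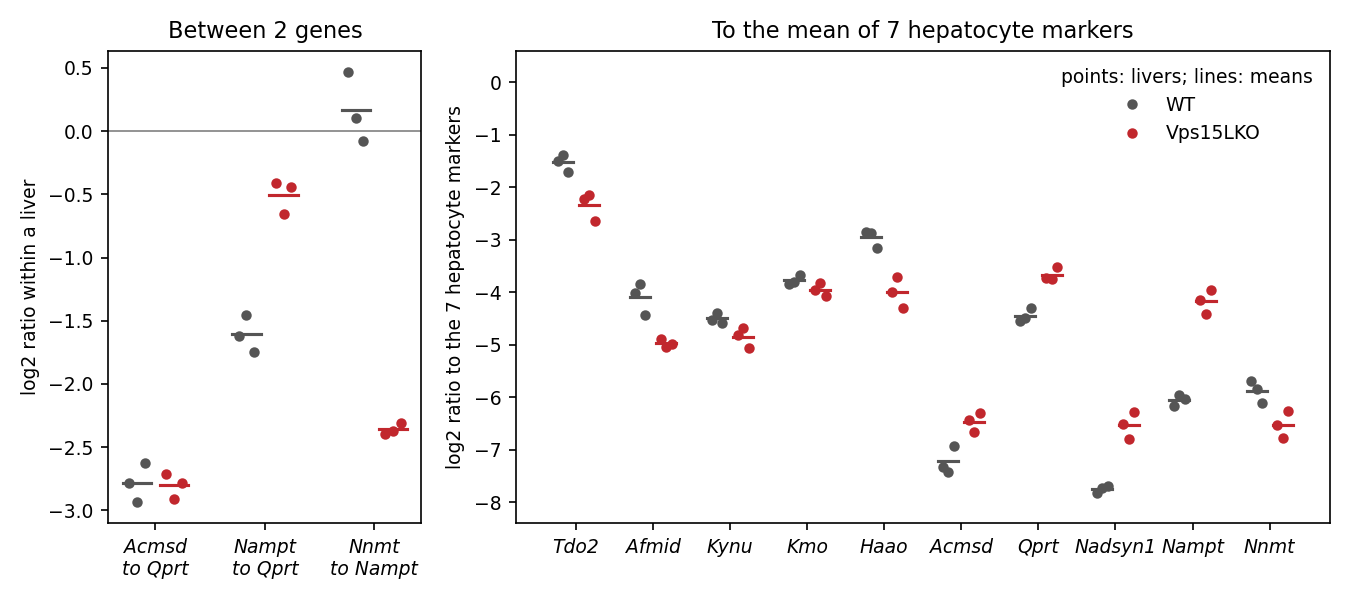
Left, log2 ratios between pairs of the genes within each liver; right, log2 ratio of each gene to the mean log2 level of 7 hepatocyte markers in the same liver. Points are livers (n = 3 per genotype, WT grey, Vps15LKO red) and lines are means; Acmsd to Qprt overlaps between genotypes, Nampt to Qprt is higher by 1.10 and Nnmt to Nampt lower in Vps15LKO, and on the right Acmsd, Qprt, Nadsyn1 and Nampt lie above WT while Haao, Afmid, Tdo2, Nnmt and Kynu lie below it.

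Of 10 other enzymes listed, most of them of the kynurenine pathway, 8 were tested. All 8 were called lower, with a median log2 fold change of -2.12, and 6 were called lower with the same total of reads, beside 33.0% and 11.1% of all tested genes. Among the 8 was Il4i1, an amino acid oxidase outside that pathway, at -0.68 as deposited and 0.05, not called, with the same total of reads. Ido2, a second enzyme able to open the indole ring, fell from 1829 ± 57.2 normalized counts to 276 ± 88.1 (SD, n = 3), a log2 fold change of -2.78 with an SE of 0.20 (adjusted p = 9.3e-06, limma with Benjamini-Hochberg adjustment). Aadat, a transaminase that turns kynurenine into kynurenate, fell from 2512 ± 617 to 489 ± 134, a log2 fold change of -2.37. Ido1, the inducible counterpart of Tdo2 outside the liver, and Tph1, which starts serotonin synthesis, were below the filter of 20 normalized counts in 3 of 6 livers.

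Carriers of tryptophan and related amino acids moved both ways, with 1 of 4 tested genes called lower and 3 higher, both as deposited and with the same total of reads, although the call of Slc7a5 was lost with quantile normalization. As deposited, 33.0% of all tested genes were called lower and 33.5% higher. With the same total of reads, 3 of 4 higher is near the 66.7% of all tested genes called higher. Slc16a10, an aromatic amino acid transporter, fell from 2094 ± 392 to 610.2 ± 55.9 normalized counts (-1.76). Slc7a8, a light chain of the large neutral amino acid exchanger, rose from 221 ± 32.4 to 1166 ± 129 (2.40), and Slc3a2, the heavy chain that such exchangers share, rose from 953 ± 92.2 to 2863 ± 264 (1.59). Slc7a5, another light chain, was called at a log2 fold change of 0.43 (adjusted p = 0.0301, limma with Benjamini-Hochberg adjustment). With quantile normalization its log2 fold change was 0.06 and not called (adjusted p = 0.727, limma with Benjamini-Hochberg adjustment), and it also lost its call at the strict threshold (adjusted p under 0.01 and 1.5-fold) and when WT replicate 1 or any 1 of the Vps15LKO replicates was left out. Slc6a19 was below the filter.

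Of the other genes that make, phosphorylate or carry NAD, 6 of 8 tested were called lower and 0 higher, with a median of -0.88; with the same total of reads 3 were lower and 1 higher, beside the same shares over all genes. Nadk2, the mitochondrial NAD kinase, fell from 3291 ± 209 to 1129.7 ± 272 normalized counts (-1.57). Naprt, which starts salvage from nicotinate, fell from 1667 ± 213 to 706 ± 157 (-1.25). Nmnat2 and Nmrk2 were below the filter. Of the enzymes that oxidise nicotinamide and its methylated form, 3 of 3 were called lower, with a median of -3.38, and 2 with the same total of reads. Of all tested genes, 33.0% and 11.1% were called lower under these scalings. Cyp2e1, which oxidises nicotinamide, fell from 178970 ± 32725 to 16486 ± 5431 (-3.47), and Aox3, a liver aldehyde oxidase, fell from 18043 ± 3058 to 1844 ± 855 (-3.38). Aox1 was at 2095 ± 396 and 1179 ± 277 normalized counts (-0.84), and it lost its call with the same total of reads (-0.11).

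Most clock genes listed with Nampt were called lower with the deposited size factors. Of 13 tested, 10 were called lower and 0 higher, with a median of -0.98, beside 33.0% of all tested genes called lower and 33.5% higher. With the same total of reads 6 were lower and 1 higher, beside 11.1% and 66.7%. Ciart, a clock repressor, fell from 196 ± 27.2 to 56.4 ± 26.9 normalized counts (-1.90), and Bhlhe41, another repressor, from 225 ± 75.2 to 74.3 ± 11.0 (-1.54). The difference between Nampt and these genes was not tested, and a single time of day was sampled.

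**Figure D4:**
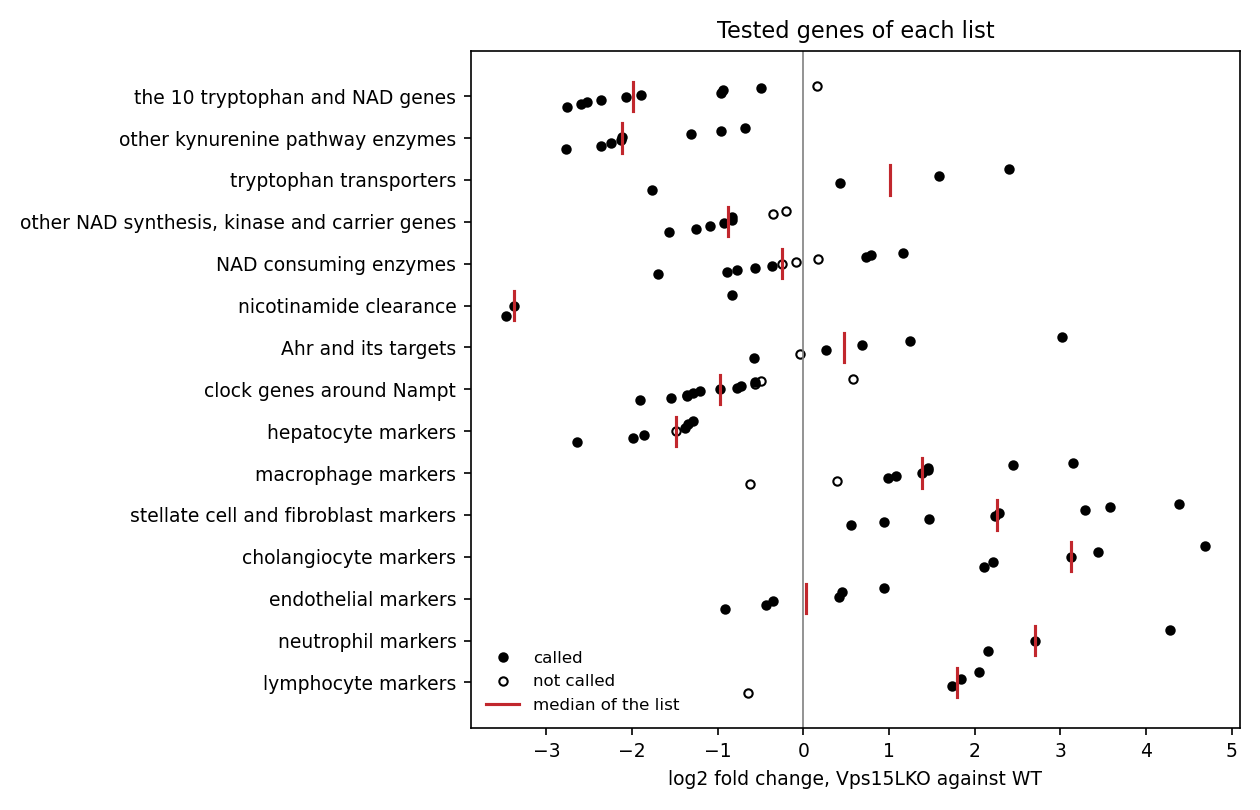
Log2 fold change, Vps15LKO against WT, of every tested gene of each list with the deposited size factors; filled points were called, open points were not, and red bars are list medians. Medians run from -3.38 for nicotinamide clearance and -1.99 for the 10 genes to 3.13 for cholangiocyte markers; the same total of reads adds about 0.72 to each, which turns the median of NAD consuming enzymes from -0.25 to 0.48.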

How the data were processed

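Liver polyA RNA of 3 WT and 3 Vps15LKO mice was sequenced on a DNBSEQ instrument. The authors aligned reads to GRCm38 (HISAT2), assigned them to genes (featureCounts) and deposited 1 table of normalized counts, a signal obtained by dividing counts by DESeq2 size factors; how strand, multiple mapping and overlapping genes were treated is not given in the sources used here. The deposited values gave back whole reads for 100% of values (tolerance 0.001 reads). The 2 overlapping entries for Nnt differed by at most 0.641%, so reads in overlapping genes may be counted for each.

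The 15430 genes that reached 20 normalized counts in 3 or more of 6 livers were tested with limma 3.58.1 (R 4.3.3; lmFit, eBayes with trend) on log2(normalized count + 1), with Benjamini-Hochberg adjustment over all of them. Fold changes are on that scale, and intervals are 95% limma intervals. Replicates are separate mice; an exact permutation test of 3 against 3 could not go below 0.1. The labels do not pair the samples, so the fit had no pairing. Deviations of same-numbered livers correlated at -0.01, -0.01 and 0.05, and those of differently numbered livers at -0.06 to 0.09. These values cannot show whether livers shared a litter or batch. On simulated data (15135 genes of this comparison), 78.6% of 2-fold and 100% of 4-fold changes were recovered. There 200 genes were changed and all genes had the same dispersion. In the data 66.5% of genes were called, so these rates do not carry over to it. No replicate pair agreed within sampling noise (chi-square per gene 15.0 to 40.9).

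Alternatives were other pseudocounts, filters, scalings and thresholds, edgeR 4.0.16, DESeq2 1.42.0 and voom on the recovered reads, a replicate block and leaving out each liver. Genes and lists were chosen with earlier results of these data known. All 10 genes are named, and of each other list all called genes when 4 or fewer, otherwise the 2 largest falls and the 2 largest rises among called genes, with genes below the filter by name; some items are not reported here. Gene positions and exon lengths are from GENCODE M21, and promoters from RefSeq (GRCm38.p6). Per-kb levels use the union of exons.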

Additional observations from a re-analysis of the deposited data

How the results depend on the processing

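Over 21 alternatives, 9 of the 10 genes were called lower in all but 2, the exceptions being 6 with the same total of reads and 8 at an adjusted p under 0.01 with a fold of 1.5. The count called higher became 1 (Nampt) with upper quartile scaling, quantile normalization and the same total of reads, with log2 fold changes of 0.29, 0.46 and 0.89. The same total of reads turned Nadsyn1 to 0.24, Pik3r4 to 0.19 and Cyp1a2 to 0.16, and quantile normalization turned Cyp1a2 to 0.59. The same total of reads also moved the 53 tested genes of the 7 other pathway lists from 34 lower and 10 higher to 19 lower and 17 higher, and the strict threshold gave 6 higher. Over all genes the same total of reads gave 1712 lower and 10299 higher against 5099 and 5163; upper quartile scaling moved the median by 0.12. Leaving out 1 liver gave 9 lower and 0 higher among the 10 genes in each case, 31 to 36 lower and 8 to 10 higher among pathway genes, and 9098 to 10222 calls over all genes. The replicate block gave 4983 lower and 5065 higher over all genes, and 9 lower and 0 higher among the 10; it changed no call among the 31 genes followed. Of 31 genes followed, 21 kept direction and call throughout, 28 their direction. Against Alb alone or 6 markers without Tat, the hepatocyte ratios kept their signs, from -1.27 for Haao to 1.72 for Nampt. The cause of these changes was not tested. In WT, 1 read is worth 1.25 to 1.35 normalized counts and in Vps15LKO 0.707 to 0.810, so depth does not limit the levels of the 10 genes.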

Other observations

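Of 11 tested enzymes that consume NAD, 5 were called lower and 3 higher with the deposited size factors, where 33.0% and 33.5% of all genes were, and 1 lower and 7 higher with the same total of reads, where 11.1% and 66.7% were. These counts are near the shares over all genes and are no result about the list. Sirt3, the main deacetylase of mitochondria, fell from 1401 ± 292 to 432 ± 92.7 normalized counts (SD, n = 3), a log2 fold change of -1.70. Sirt7, a nucleolar sirtuin, was at 745 ± 104 in WT and 398 ± 3.74 in Vps15LKO (-0.89), and lost its call with the same total of reads (-0.17). Sirt6, a chromatin sirtuin, rose from 72.4 ± 5.55 to 163 ± 17.9 (1.16), and Cd38, an NAD glycohydrolase found on leukocytes, rose from 257 ± 53.2 to 440.5 ± 39.2 (0.79). Bst1 and Sarm1 were below the filter.

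Kynurenine is known as a ligand of the aryl hydrocarbon receptor, and of 6 tested genes for the receptor, its partner and its targets, 1 was called lower and 4 higher, and 0 lower and 5 higher with the same total of reads, beside the same shares over all genes. Cyp1b1 rose from 19.0 ± 4.09 to 165 ± 52.2 normalized counts (3.02) and Cyp1a1 from 25.1 ± 10.7 to 57.8 ± 11.8 (1.24). Cyp1a1 lost its call with quantile normalization (0.55, adjusted p = 0.173 by limma with Benjamini-Hochberg adjustment) and at an adjusted p under 0.01 with a fold of 1.5. Cyp1a2, by far the most abundant of the 3 in these livers, was at 18827 ± 2626 in WT and 12710.4 ± 2022 in Vps15LKO (-0.57, adjusted p = 0.0207 by limma with Benjamini-Hochberg adjustment). The direction of Cyp1a2 turned with the same total of reads (0.16, not called) and with quantile normalization, where it was called higher (0.59, adjusted p = 0.00386 by limma with Benjamini-Hochberg adjustment). It lost its lower call without WT replicate 1 (-0.56), WT replicate 2 (-0.47) or Vps15LKO replicate 3 (-0.43). Ahrr was below the filter.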
